A study of Homo sapiens with 4 samples.

Results

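The nuclear genes that encode subunits of respiratory complexes I, II, IV and V were examined in DaroR cells after knockdown of the long noncoding RNA LOC730101. Genes were chosen by name from the count table: the NDUFA, NDUFB, NDUFC, NDUFS and NDUFV families of complex I, SDHA to SDHD of complex II, the COX4 to COX8 families of complex IV, and the ATP5 families of complex V. Names of pseudogenes and names with a hyphen were dropped, so that 77 of the 60606 genes of the table remained. There were 36 genes of complex I, 4 of complex II, 18 of complex IV and 19 of complex V. NDUFA4 and NDUFA4L2 carry complex I names and were counted with complex IV, where NDUFA4 is now placed. DaroR is a single resistant line, derived from the androgen-dependent LNCaP prostate cancer cells by long culture in the androgen receptor antagonist darolutamide. Both groups were DaroR cells, with 2 libraries given a control siRNA (siControl) and 2 given pooled siRNAs that target LOC730101 (siLOC730101). Nothing in the labels says that the 2 libraries of a group came from separate cultures, so that the p-values measure the spread between these libraries, which may be technical.

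Oxidative phosphorylation takes place in the inner mitochondrial membrane. Complex I oxidizes NADH and complex II oxidizes succinate, electrons pass through complex III to complex IV, which reduces oxygen, and complex V uses the resulting proton gradient to make ATP. Complexes I, IV and V are built from nuclear-encoded subunits together with subunits encoded by the mitochondrial genome, whereas complex II is wholly nuclear-encoded.

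The libraries held 39213498 to 53368158 counts. LOC730101, listed in the table as ENSG00000216775, was measured at 47.4 and 50.6 CPM (counts relative to the library size, scaled by TMM) in siControl and at 15.4 and 17.9 CPM in siLOC730101, a log2 fold change of -1.56 (SE 0.116) with an adjusted p of 4.34e-06 in edgeR's quasi-likelihood test with Benjamini-Hochberg adjustment. All log2 fold changes are siLOC730101 against siControl. All 9 prostate luminal markers were expressed, at mean levels from 349 to 1744 CPM, and no marker of immune or muscle cells passed the filter on low counts. The summed level of the fibroblast markers was 13.9 to 18.0 CPM and that of the endothelial markers 5.84 to 9.44 CPM, and the groups overlapped in both. In bulk RNA, a change in the number of cells of a kind and a change in RNA per cell cannot be told apart.

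The nuclear respiratory genes were higher in the siLOC730101 libraries as a group, by a small amount. Their summed level was 8166 and 8276 CPM in siControl and 8887 and 10180 CPM in siLOC730101. Of the 77 genes, 73 passed the filter on low counts, and 68 of the 73 (93.2%) had a log2 fold change above 0, beside 49.6% of the 19349 genes tested. The median log2 fold change of the 73 genes was 0.247, beside -0.00213 over all genes tested. A total of 8 genes rose at an adjusted p under 0.05 in edgeR's test, where 0.212% of all genes tested did so. No respiratory gene fell at that threshold in edgeR's test or in DESeq2, where 0.0724% of all genes tested did in edgeR's test. At an unadjusted p under 0.05, 39 of the 73 were higher and 1, NDUFA4L2, was lower, beside 6.43% and 4.39% of all genes tested. Both siLOC730101 libraries were above both siControl libraries for 54 of the genes and below them for 2, COX7A1 and NDUFA4L2, beside 21.3% and 20.5% of all genes tested. Of 350 other protein-coding genes with an mRNA under 1000 bases and a mean above 20 CPM, 93.1% were above 0. Of the 47 respiratory genes of that length, 91.5% were. In edgeR's test 62.0% and 66.0% of these were higher at an unadjusted p under 0.05, and 5.43% and 12.8% at an adjusted p under 0.05. With 2 libraries against 2, an exact permutation test cannot give a two-sided p under 0.333.

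The size of the difference depended on which siLOC730101 library was used. The median log2 ratio of the 73 genes to the siControl mean was 0.109 in siLOC730101 replicate 1 and 0.355 in replicate 2, and 68 of the 73 genes were higher in replicate 2 than in replicate 1. Between the siControl libraries the same comparison split the genes almost evenly, with 33 of 73 higher in replicate 2. Without siLOC730101 replicate 2, the median log2 fold change was 0.107, and 21 respiratory genes passed the unadjusted threshold and 8 the adjusted one, where 77 of 21677 genes rose and 60 fell over the whole table. Without siLOC730101 replicate 1, the median was 0.379 and 45 respiratory genes passed the adjusted threshold, where 923 of 21482 genes rose and 272 fell over the whole table, against 41 and 14 with all libraries. The direction of the median was therefore shared by both libraries, and its size was not. The plot of gene groups by library shows this difference for each complex.

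**Figure D1:**
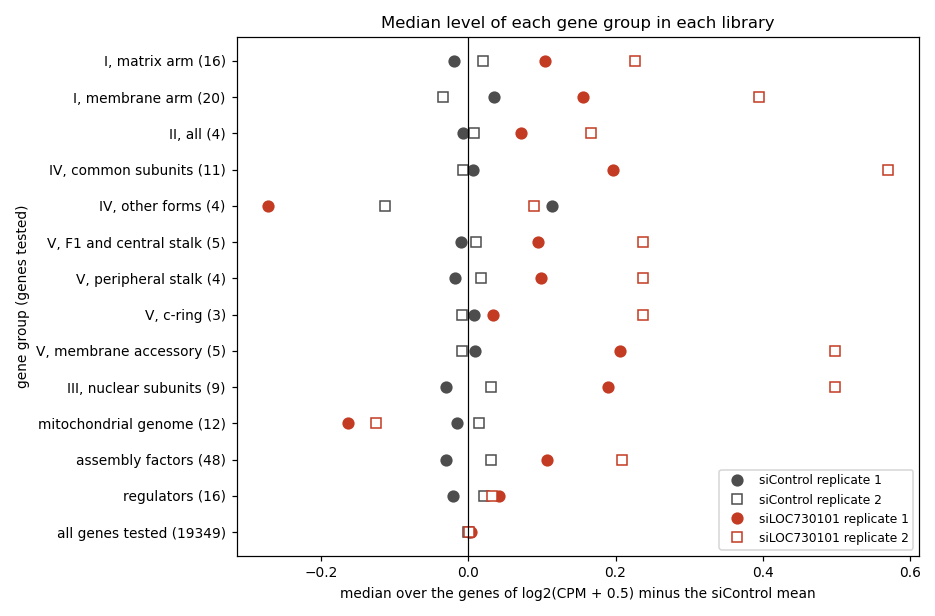
Median over the genes of each group of log2(CPM + 0.5) minus the siControl mean, in each library; the number of genes tested stands in brackets. The siLOC730101 libraries lie to the right of both siControl libraries for each nuclear subunit group except the other forms of complex IV, farther in replicate 2 than in replicate 1, to the left for the genes of the mitochondrial genome, and within 0.00348 of 0 for all genes tested.

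Complex I had 3 of the 8 genes that rose. NDUFS6, a zinc-binding subunit of the matrix arm (chr5:1801407-1816048), was measured at 38.9 and 42.3 CPM in siControl and at 59.8 and 64.6 CPM in siLOC730101. Its log2 fold change was 0.62 (SE 0.097) with an adjusted p of 0.00954 in edgeR's test. NDUFB1, a small supernumerary subunit of the membrane arm (chr14:92116122-92121917), was at 23.8 and 22.9 CPM in siControl and at 36.1 and 37.8 CPM in siLOC730101. For both genes the groups were well apart and the 2 siLOC730101 libraries were close to each other. NDUFB1 rose by 0.66 on the log2 scale (SE 0.109, adjusted p of 0.0132, edgeR). NDUFA3, also a small membrane arm subunit (chr19:54102728-54109257), was at 23.9 and 21.5 CPM in siControl and at 34.5 and 47.7 CPM in siLOC730101. Its siLOC730101 libraries were farther apart, and its log2 fold change of 0.86 (SE 0.139, adjusted p of 0.0127, edgeR) was the largest among the 8 genes.

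None of the remaining complex I genes passed the adjusted threshold in edgeR's test, and all but NDUFV2 and NDUFA9 had a log2 fold change above 0. All 20 membrane arm genes had a log2 fold change above 0, with a median of 0.287. They encode accessory subunits of the proton-pumping part. Of the 16 matrix arm genes, which carry NADH oxidation and the iron-sulfur clusters, 14 were above 0, with a median of 0.181. NDUFA1, needed for assembly of the membrane arm, was at 36.0 and 32.9 CPM in siControl and at 43.6 and 67.3 CPM in siLOC730101, so that the groups did not overlap, with an adjusted p of 0.0764 in edgeR's test. NDUFB3 was at 25.4 and 21.8 CPM in siControl and at 30.8 and 38.8 CPM in siLOC730101, with an adjusted p of 0.0947 in edgeR's test. NDUFS5, a membrane arm subunit of the intermembrane space side despite its name, was at 108 and 111 CPM in siControl and at 132 and 155 CPM in siLOC730101, with an adjusted p of 0.0865 in edgeR's test. Each of the 3 genes was clearly apart between the groups and missed the adjusted threshold.

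The catalytic core genes of complex I had log2 fold changes below the median of the complex, 0.238. NDUFS1, the largest subunit and the holder of several iron-sulfur clusters, was at 174 and 170 CPM in siControl and at 175 and 178 CPM in siLOC730101, with a log2 fold change of 0.043 (SE 0.074). NDUFV1, the subunit that binds NADH and flavin, was at 165 and 192 CPM in siControl and at 191 and 223 CPM in siLOC730101. Its log2 fold change was 0.21, with an unadjusted p of 0.0353 in edgeR's test, and its groups overlapped. The groups of NDUFS1 were apart by a small margin. NDUFS3, NDUFS7 and NDUFS8 had log2 fold changes of 0.13, 0.049 and 0.19, and the unadjusted p of NDUFS8 was 0.0466 in edgeR's test. The log2 fold change of NDUFS7 was -0.0348 without siControl replicate 1 and -0.0409 without siLOC730101 replicate 2. NDUFS7 shares 51.4% of its exon bases with other genes. None of these core genes passed the adjusted threshold, the lowest adjusted p being 0.411 for NDUFV1 in edgeR's test.

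Some complex I genes had so few counts that their values were uncertain. The counts of NDUFA7 were 33 and 20 in siControl against 65 and 63 in siLOC730101. Its log2 fold change of 1.63 was the highest of all members, with an SE of 0.522 and an adjusted p of 0.221 in edgeR's test. Reads that overlap several genes were left uncounted under the counting program's defaults, and 32.5% of the exon bases of NDUFA7 are shared with ENSG00000167774, a gene that overlaps it. The counts of NDUFV2, another core subunit, were 148 and 98 in siControl against 87 and 64 in siLOC730101, a log2 fold change of -0.35 (SE 0.351). Those of NDUFV2P1, a pseudogene named after it, were 318 and 291 in siControl against 212 and 224 in siLOC730101, 263.22% of the counts of NDUFV2 itself. The level of NDUFV2 could not be separated from that of its copy. NDUFV2 also shares 28.4% of its exon bases with ENSG00000265257, where reads were left uncounted. The part of the copy and of the overlap in its few counts was not tested. NDUFA9 (log2 fold change of -0.025, and 0.103 without siControl replicate 1) and NDUFV2 were the only complex I genes below 0, and neither passed the unadjusted threshold.

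**Figure D2:**
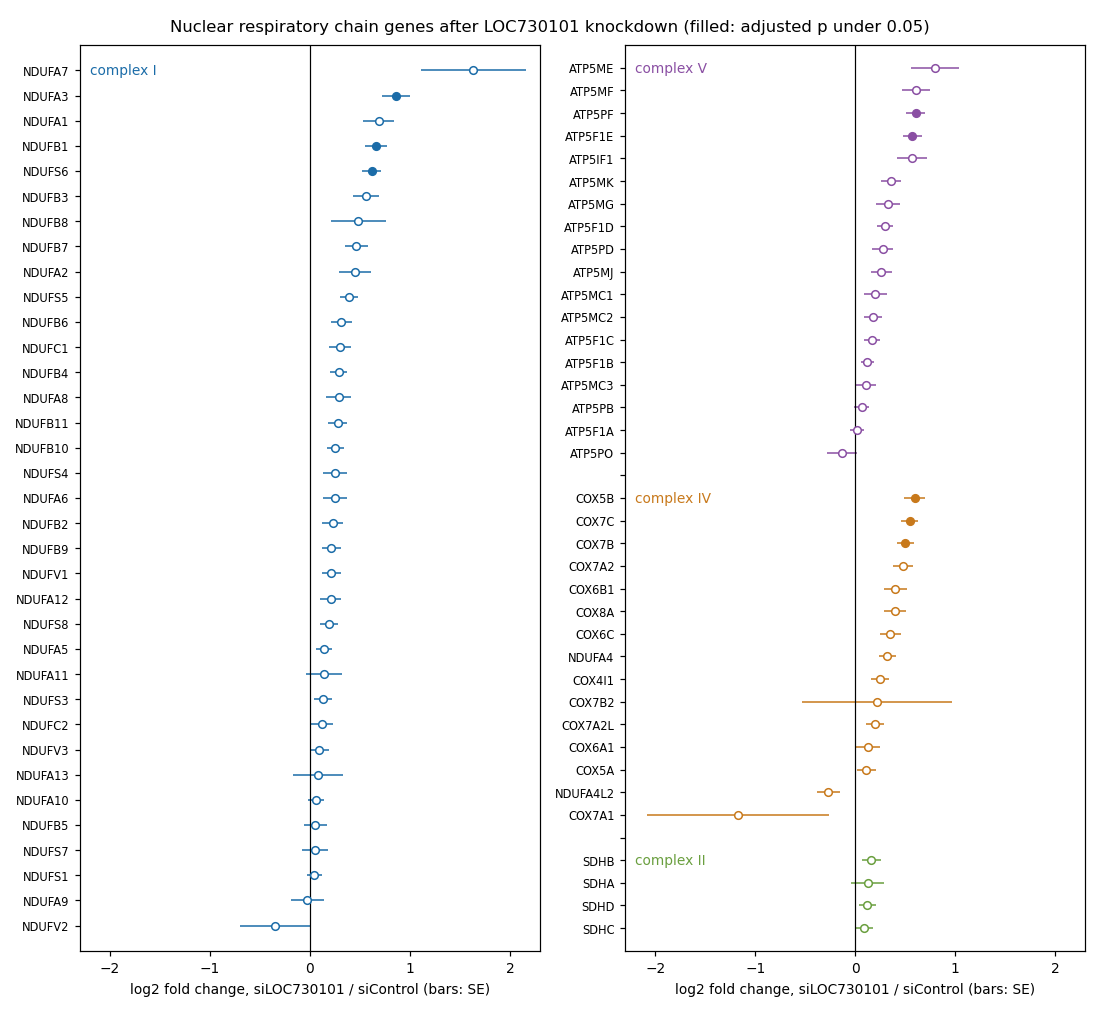
Log2 fold change of siLOC730101 against siControl for 72 of the 73 genes tested, by complex, with SE from edgeR's fit; filled points passed an adjusted p under 0.05. The 8 filled points lie between 0.50 and 0.86, and 5 genes lie below 0, each with an open point.

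Complex II showed the smallest median of the complexes. SDHA binds the flavin and SDHB the iron-sulfur clusters of succinate dehydrogenase, and SDHC and SDHD anchor them in the membrane. The 4 log2 fold changes lay between 0.0925 and 0.159, with a median of 0.123. SDHB was at 52.2 and 54.2 CPM in siControl and at 56.0 and 62.8 CPM in siLOC730101, with an adjusted p of 0.589 in edgeR's test. None of the 4 genes passed the adjusted threshold in edgeR's test or in DESeq2, and 0 passed an unadjusted p under 0.05. SDHA was at 9.86 and 10.6 CPM in siControl and at 10.8 and 11.6 CPM in siLOC730101, and its log2 fold change of 0.13 had an SE of 0.164. SDHA shares 21.7% of its exon bases with ENSG00000286001, where reads were left uncounted. The counts of SDHAP1, SDHAP3 and SDHAP4, pseudogenes similar to SDHA, were 119.1%, 104.5% and 169.4% of those of SDHA. These copies were looked up after the low level of SDHA had been seen. The level of SDHA is therefore uncertain, and the part of the overlap and of the copies in it was not tested.

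Complex IV held 3 of the genes that rose and had the highest median, 0.323 over 15 genes tested. COX7C, a small transmembrane subunit (chr5:86617928-86620962), was at 188 and 204 CPM in siControl and at 265 and 308 CPM in siLOC730101, with a log2 fold change of 0.55 (SE 0.085, adjusted p of 0.00954, edgeR). COX5B, which binds zinc on the matrix side (chr2:97646062-97648383), was at 90.1 and 87.7 CPM in siControl and at 116 and 153 CPM in siLOC730101, with a log2 fold change of 0.59 (SE 0.107, adjusted p of 0.0223, edgeR). COX7B, a further small transmembrane subunit (chrX:77899440-77907376), was at 76.3 and 82.0 CPM in siControl and at 105 and 119 CPM in siLOC730101. All 3 genes had both siLOC730101 libraries far above both siControl libraries. COX7B rose by 0.50 on the log2 scale (SE 0.089, adjusted p of 0.0205, edgeR), and its adjusted p was 0.0676 without siControl replicate 1.

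None of the other 8 subunits of complex IV found in most tissues passed the adjusted threshold in edgeR's test. All 11 common subunits had a log2 fold change above 0, with a median of 0.398. For 9 of the 11, both siLOC730101 libraries were above both siControl libraries, beside 21.3% of all genes tested. COX7A2 was at 100 and 101 CPM in siControl and at 124 and 157 CPM in siLOC730101, with a log2 fold change of 0.48 and an adjusted p of 0.0579 in edgeR's test. COX4I1, the largest nuclear subunit of the complex, was at 324 and 321 CPM in siControl and at 344 and 422 CPM in siLOC730101, with an adjusted p of 0.282 in edgeR's test. COX5A and COX6A1 were the common subunits whose groups overlapped. COX5A was at 149 and 139 CPM in siControl and at 138 and 174 CPM in siLOC730101. Both had log2 fold changes below 0 without siLOC730101 replicate 2, -0.0684 for COX5A and -0.0593 for COX6A1.

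The tissue-specific and alternative forms of complex IV had log2 fold changes of both signs. NDUFA4L2, a paralogue of NDUFA4 known as a target of hypoxia signalling, was at 36.8 and 36.0 CPM in siControl and at 27.1 and 33.4 CPM in siLOC730101, with a log2 fold change of -0.27, an unadjusted p of 0.0381 and an adjusted p of 0.426 in edgeR's test. NDUFA4 was at 194 and 203 CPM in siControl and at 227 and 269 CPM in siLOC730101, with a log2 fold change of 0.32 and an adjusted p of 0.136 in edgeR's test. Paralogues of one pair thus had log2 fold changes of opposite sign, and neither passed the adjusted threshold. The muscle form COX7A1 was at 0.629 and 0.342 CPM in siControl and at 0.243 and 0.184 CPM in siLOC730101, with a log2 fold change of -1.17 and an SE of 0.908. COX7A2L, which takes part in joining complexes III and IV, was at 155 and 175 CPM in siControl and at 176 and 203 CPM in siLOC730101, with a log2 fold change of 0.20. COX6A2, a form of heart and skeletal muscle, and COX4I2, a form of lung, had 0 counts in all 4 libraries, where 3 counts would be 0.0555 to 0.079 CPM. COX6B2, a testis form, was at 0.203, 0.107, 0.243 and 0 CPM, and COX7B2 was at 0.79 CPM or less in each library.

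**Figure D3:**
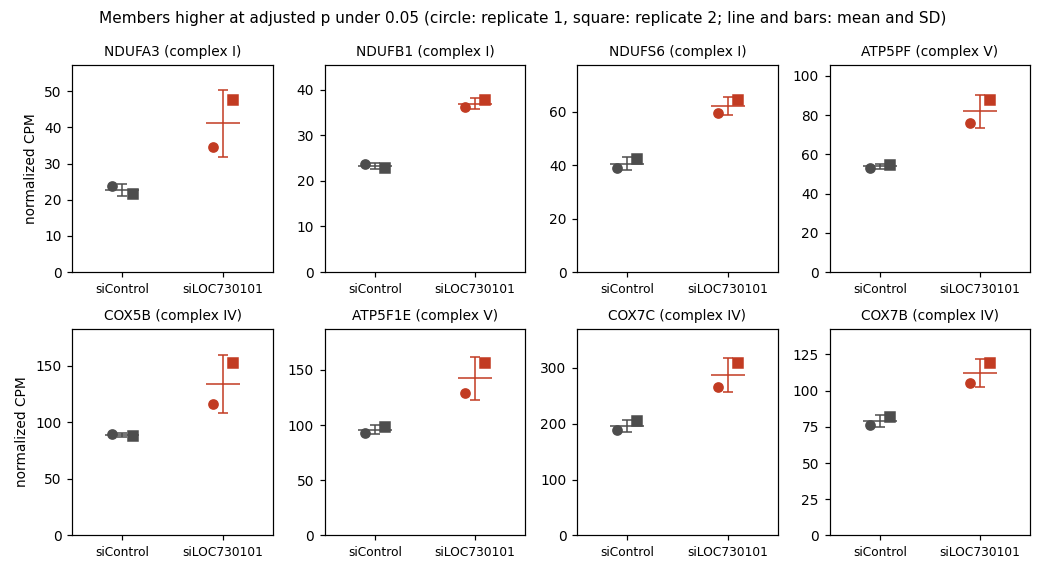
Normalized CPM of the 8 genes with an adjusted p under 0.05 in each library, with mean and SD of the 2 libraries of a group; each axis starts at 0. Both siLOC730101 libraries lie above both siControl libraries in all 8 panels, and replicate 2 lies above replicate 1 in siLOC730101.

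Complex V held the remaining 2 genes that rose. ATP5F1E, the epsilon subunit of the central stalk (chr20:59025475-59032345), was at 93.1 and 98.5 CPM in siControl and at 129 and 156 CPM in siLOC730101, with a log2 fold change of 0.57 (SE 0.094, adjusted p of 0.0132, edgeR). ATP5PF, coupling factor 6 of the peripheral stalk (chr21:25716503-25735673), was at 53.0 and 54.6 CPM in siControl and at 76.0 and 87.9 CPM in siLOC730101, with a log2 fold change of 0.61 (SE 0.094, adjusted p of 0.00954, edgeR). For both, the lower siLOC730101 library was well above the higher siControl library. ATP5PF shares 34.4% of its exon bases with GABPA, which was at 46.6 and 47.8 CPM in siControl and at 49.1 and 42.6 CPM in siLOC730101, with a log2 fold change of -0.040 (SE 0.101). The part of the overlap in the change of ATP5PF was not tested.

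The highest values in CPM, which is not scaled by transcript length, belonged to genes of the F1 head. ATP5F1B, the catalytic beta subunit, was at 1624 and 1647 CPM in siControl and at 1701 and 1856 CPM in siLOC730101, with a log2 fold change of 0.12 (SE 0.067) and an adjusted p of 0.549 in edgeR's test. ATP5F1A, the alpha subunit, was at 989 and 986 CPM in siControl and at 979 and 1022 CPM in siLOC730101. Its groups overlapped, and its log2 fold change of 0.018 turned to -0.02 with library sizes alone, -0.0133 with upper-quartile factors and -0.0158 without siLOC730101 replicate 2. ATP5F1C and ATP5F1D had log2 fold changes of 0.17 and 0.30. The 5 genes of the F1 head and central stalk therefore ranged from 0.0179 to 0.571.

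The membrane-bound accessory subunits of complex V had a higher median, 0.359 over 5 genes tested. For all 5, both siLOC730101 libraries were above both siControl libraries, beside 21.3% of all genes tested. ATP5MF was at 59.1 and 56.0 CPM in siControl and at 69.4 and 106 CPM in siLOC730101, with a log2 fold change of 0.61 and an adjusted p of 0.092 in edgeR's test. ATP5ME was at 7.68 and 4.89 CPM in siControl and at 8.81 and 13.1 CPM in siLOC730101, and 61.3% of its exon bases are shared with MYL5, where reads were left uncounted. ATP5MC1, ATP5MC2 and ATP5MC3 encode the same mature c-ring subunit with different leader peptides, and their log2 fold changes were 0.20, 0.18 and 0.11. Without 1 library at a time, these ranged from 0.033 to 0.396 for ATP5MC1, lowest without siControl replicate 2 and highest without siControl replicate 1. Without siLOC730101 replicate 2 they were 0.0304 for ATP5MC2 and -0.0283 for ATP5MC3, and without siLOC730101 replicate 1 they were 0.327 and 0.245. ATP5IF1, the inhibitor of ATP hydrolysis, was at 11.7 and 10.2 CPM in siControl and at 15.5 and 17.1 CPM in siLOC730101, with a log2 fold change of 0.57 and an adjusted p of 0.143 in edgeR's test. ATP5PO of the peripheral stalk was the only complex V gene below 0, at -0.13 (SE 0.149), and at 0.0787 without siLOC730101 replicate 1. ATP5MGL was nearly absent, at 0.111 CPM in siControl replicate 1 and 0 in the other libraries.

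Levels were compared between genes as CPM per kb of the annotated canonical mRNA, a length that was available for 76 of the 77 genes. In siControl, ATP5F1B was highest at 930 ± 9.11 (SD, n = 2) CPM per kb, followed by COX4I1 at 423 ± 2.85, COX7C at 312 ± 17.9 and ATP5MC2 at 293 ± 2.34. The levels of COX7C and ATP5MC2 differed by little more than the SD of COX7C. In complex I, NDUFB4 was highest at 265 ± 3.15, NDUFB10 reached 242 ± 3.91 and NDUFS5 reached 221 ± 4.51 CPM per kb. In complex II, SDHC stood at 111 ± 6.43, SDHB at 52.4 ± 1.39, SDHD at 46.7 ± 0.574 and SDHA at 3.80 ± 0.193 CPM per kb. The subunits of complex II, present in equal number in the complex, thus differed in transcript level, with that of SDHA uncertain as described above. In complex I the lowest were NDUFA7 at 0.895 ± 0.223, NDUFA9 at 1.35 ± 0.159 and NDUFV2 at 2.82 ± 0.531 CPM per kb. These genes share 32.5%, 10.6% and 28.4% of their exon bases with other genes, where reads were left uncounted. Their low values may therefore not be low transcript levels, which was not tested. The order depended on the length used: per kb of all exon bases in the table, the highest were NDUFS5 at 199.6 in complex I, COX8A at 121 in complex IV and ATP5F1B at 731 in complex V.

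**Figure D4:**
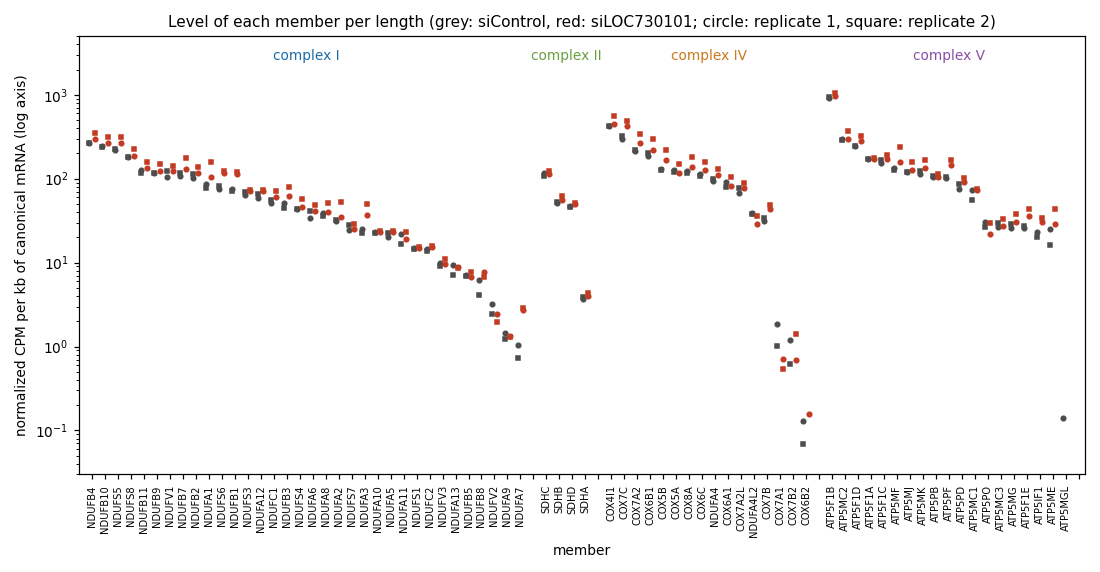
Level of 73 genes in each library as normalized CPM per kb of canonical mRNA, on a log axis, ordered within a complex by the siControl mean; values of 0 are not drawn, nor is NDUFB6, which had no such length. Drawn values span from 1055 for ATP5F1B in siLOC730101 replicate 2 down to 0.0682 for COX6B2 in siControl replicate 2, and within a gene the libraries mostly lie close together on this scale.

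Fold change was related to gene size among the respiratory genes and among other genes. The respiratory genes had a median coding length of 409.5 bases, against 1431 for the other protein-coding genes tested. Among 72 respiratory genes with a coding length, Spearman's rho between coding length and log2 fold change was -0.635, and among 13469 other protein-coding genes it was -0.25. These are correlations across genes in the same libraries, and genes are not independent replicates. The 8 genes that rose had coding lengths of 387 bases or less. For coding lengths under 300 bases, 21 respiratory genes had a median log2 fold change of 0.451, against 0.151 for 270 other genes tested and 0.233 for the 144 of these with a mean above 20 CPM. For 300 to 600 bases, the medians were 0.248 for 34 respiratory genes, 0.106 for 1339 other genes and 0.132 for the 763 above 20 CPM. For 600 to 1200 bases, they were 0.0645 for 10 respiratory genes, 0.0619 for 3756 other genes and 0.0762 for the 2105 above 20 CPM. For 1200 bases and over, they were 0.121 for 7 respiratory genes, -0.0171 for 8104 other genes and -0.00536 for the 4785 above 20 CPM.

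**Figure D5:**
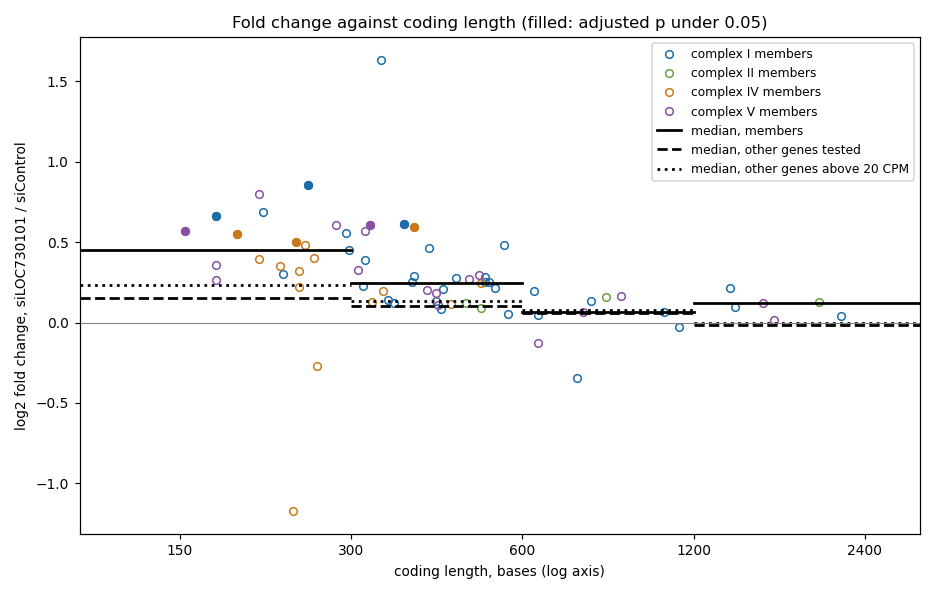
Log2 fold change of siLOC730101 against siControl for 71 of the 72 respiratory genes against coding length (log axis), with the median in each of 4 length classes for these genes, for the other protein-coding genes tested and for those of them above 20 CPM. All 3 lines are highest under 300 bases, and the 8 filled points (adjusted p under 0.05) lie at the short end.

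Other measures of length gave a different distance from other genes. With the length of the canonical mRNA, 47 respiratory genes under 1000 bases had a median log2 fold change of 0.288. It was 0.22 for the 760 protein-coding genes tested in that class, the respiratory genes included. For 350 other genes of the class with a mean above 20 CPM it was 0.271. With the exon bases of the table, the 10 respiratory genes under 1000 bases had a median of 0.394. It was -0.0996 for all 2167 genes tested of that class, protein-coding or not and the respiratory genes included. For 67 other genes of the class with a mean above 20 CPM it was 0.275. The medians over short mRNAs also differed between the siLOC730101 libraries: replicate 2 exceeded replicate 1 by 0.233 over the respiratory genes, by 0.216 over 713 other genes with an mRNA under 1000 bases and by 0.00916 over all genes tested. Between the siControl libraries the same values were -0.0137, 0.0315 and -0.00154. The part of mRNA length, and of the difference between the libraries, in the change of the respiratory genes was not tested.

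The promoters of these genes, from 250 bases before to 50 bases after the transcript start in RefSeq (GRCh38.p14), were searched on both strands for short cores of factors linked to respiratory genes. A promoter was found for 61 of the 77 genes. The core of nuclear respiratory factor NRF1, CGCATGCG, was in 16.4% of them, against 2.19% of all 27305 promoters and 3.77% of the promoters of genes tested. The ETS core CCGGAAG, read by GABP among other ETS factors, was in 27.9%, against 10.7% and 18.0%. The YY1 core ATGGCGG was also in 27.9%, against 5.72% and 9.62%, and 12 of its 17 promoters held it only across or after the start, where ATGGCGG can also be the beginning of a reading frame. In complex I, 41.9% of 31 promoters held the YY1 core, in complex IV 7.69% of 13. The ETS core overlapped its own reverse complement in ATP5MK, and a match is a description of letters only.

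Windows around cores upstream of the start are shown for the genes that rose and held one. To place the promoters beside the values above, windows of 3 further genes with an NRF1 core are also shown. These 3 are examples, taken by no set rule from the 9 genes with an NRF1 core before the start. Capitals mark the core, each window is read along the gene's strand, and the distance is from the first base of the core to the start.
NDUFS6, NRF1 core, 45 bases before the start, plus strand, chr5:1801351-1801380: cagaagccgtgCGCATGCGttagcgctaag
ATP5PF, NRF1 core, 119 bases before, minus strand, chr21:25735155-25735184: cactcaaagagCGCATGCGtacagagcaag
ATP5PF, YY1 core, 54 bases before, minus strand, chr21:25735091-25735119: gcgaagaaaagATGGCGGaggctgtgcca
ATP5PF, ETS core, 30 bases before, minus strand, chr21:25735067-25735095: tgccaggggacCCGGAAGcacttaccctc
COX5B, ETS core, 37 bases before, plus strand, chr2:97646014-97646042: gaagcccgcccCCGGAAGtccctcctgtc
ATP5F1C, NRF1 core, 21 bases before, plus strand, chr10:7788145-7788174: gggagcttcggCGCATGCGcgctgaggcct
ATP5MC2, NRF1 core, 41 bases before, minus strand, chr12:53676106-53676135: ggcccgggtcaCGCATGCGctgagccttcc
SDHD, NRF1 core, 109 bases before, plus strand, chr11:112086753-112086782: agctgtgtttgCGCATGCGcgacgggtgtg

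Of the 8 genes that rose, 2 held the NRF1 core, 2 the ETS core and 2 the YY1 core, and 3 held at least 1 of them. Over all 61 respiratory promoters, these 8 included, 31 did, and the difference was not tested. The median log2 fold change was 0.234 for 10 genes with the NRF1 core and 0.253 for 49 without it. It was 0.327 for 17 genes with the ETS core and 0.238 for 42 without it. For the YY1 core it was 0.132 for 17 genes with it and 0.287 for 42 without it.

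Regulators and assembly factors of these complexes were counted from lists. Of 16 regulators, which included NRF1, GABPA, YY1, TFAM and the PGC-1 coactivators, 9 had a log2 fold change above 0, the median was 0.0158 and none passed the adjusted threshold in edgeR's test, while 1 passed an unadjusted p under 0.05 and 1 passed the adjusted threshold in DESeq2. The gene past the unadjusted threshold was ESRRA, a nuclear receptor of respiratory gene promoters, at 75.2 and 77.7 CPM in siControl and at 91.6 and 121 CPM in siLOC730101 (log2 fold change of 0.48, adjusted p of 0.092, edgeR). Of 48 assembly factors, 38 were above 0, with a median of 0.161, and 2 rose. Over all genes tested, 49.6% were above 0, and 0.212% rose at the adjusted threshold in edgeR's test. At an unadjusted p under 0.05 in edgeR's test, 6.43% were higher and 4.39% lower. In DESeq2, 233 of 31960 genes rose. NDUFAF8, a complex I assembly factor, was at 52.9 and 58.4 CPM in siControl and at 79.2 and 95.1 CPM in siLOC730101 (log2 fold change of 0.65, adjusted p of 0.00954, edgeR). COX17, the copper chaperone of complex IV, was at 34.7 and 34.7 CPM in siControl and at 46.0 and 57.4 CPM in siLOC730101 (log2 fold change of 0.57, adjusted p of 0.0471, edgeR). The other assembly factors with an unadjusted p under 0.01 were NDUFAF3, COX14, SURF1, COA5, COA6, CMC1 and ATPAF1, with log2 fold changes from 0.32 for ATPAF1 to 0.56 for COX14.

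Partner subunits outside the name rule were set beside these genes. All 9 nuclear subunits of complex III had a log2 fold change above 0, with a median of 0.353, and 2 passed the adjusted threshold in edgeR's test, UQCRQ at 0.61 and UQCRC2 at 4.63. UQCRB, UQCRH and UQCR10, at 0.37, 0.35 and 0.44, had an unadjusted p under 0.01. Of 12 subunits encoded by the mitochondrial genome, 9 had a log2 fold change below 0, with a median of -0.145, and none passed the adjusted threshold in edgeR's test, while 6 were lower and 2 higher at an unadjusted p under 0.05 and 4 fell in DESeq2. Those with an unadjusted p under 0.01 were MT-ND1, MT-ND5, MT-CO1, MT-CO3 and MT-ATP6, with log2 fold changes from -0.31 for MT-CO3 to -0.20 for MT-ND1. The summed level of all 12 was 21640 and 21650 CPM in siControl and 18600 and 19700 CPM in siLOC730101. Over all genes tested, 49.6% had a log2 fold change above 0, and 0.212% rose at the adjusted threshold in edgeR's test. At an unadjusted p under 0.05 in edgeR's test, 4.39% were lower and 6.43% higher. In DESeq2, 64 of 31960 genes fell. NDUFAB1, a complex I subunit that the name rule leaves out, was at 103 and 113 CPM in siControl and at 126 and 140 CPM in siLOC730101, with an adjusted p of 0.163 in edgeR's test.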

How the data were processed

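Sequencing of RNA gave 4 libraries, 2 siControl and 2 siLOC730101 by their labels, all of DaroR cells. The authors counted reads per gene with featureCounts 2.0.1 on gencode version 41 (hg38) and deposited the raw counts of all libraries in 1 table, without normalization, beside the exon bases of each gene, a score that belongs to no sample. The methods of the paper name an earlier build and STAR, while the submitters' processing notes list BWA, Trim Galore and hg38. The counting command sets neither strand nor pairing, and 66.0% to 70.1% of counts between 1 and 20 were even, as when mates are counted apart. In that command the alignments of the siLOC730101 libraries carry a suffix that those of siControl do not, and a difference in processing cannot be told apart from the knockdown. Reads shared by overlapping genes were not counted under the program's defaults, and 43 of the 77 genes share exon bases with another gene. Of 154 rows dropped by name, the 150 pseudogene and read-through rows of a member held counts equal to 0.116% of the members' counts.

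Counts were fitted over the whole table in R 4.3.3 with edgeR 4.0.16 (filterByExpr, TMM, glmQLFit with package defaults, condition only), and p-values were adjusted by Benjamini-Hochberg over 19349 genes. The common coefficient of variation was 0.147. Library totals of 39213498 to 53368158 counts left single genes under about 100 counts imprecise. DESeq2 1.42.0, other scalings, filters, halved counts, added copies, a replicate term and leaving out each library were the alternatives. The chi-square per degree of freedom between libraries of a group was 11.27 and 14.2, so that neither pair held the same counts. The script was tested on simulated data. Canonical mRNA and coding lengths came from a GRCh37 annotation, used for lengths only. The classes of mRNA and coding length and the limit of 20 CPM were added after the data had been seen. The genes and lists were chosen with earlier results of these data known. Genes named in the text were taken from those with an adjusted p under 0.05, the 3 highest and 3 lowest fold changes of each complex above a mean count of 50, the highest and lowest levels, the catalytic cores, complex II, the isoform sets, ATP5IF1 and members with overlaps or copies. From other lists, genes with an adjusted p under 0.05 or an unadjusted p under 0.01 are named. GABPA was named as the gene that overlaps ATP5PF. NDUFB4, NDUFB10, ATP5MGL and the pseudogenes of SDHA were named after their values had been seen. The values of 1 member, which stayed in the fits and counts, are not reported here. Protein sequences were not used here.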

Additional observations from a re-analysis of the deposited data

How the results depend on the processing

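Under 15 other settings the medians of all 73 genes and of each complex kept their sign, and in each of them no respiratory gene fell. The number that rose was 8 with the settings of the report, 18 with DESeq2, 14 with a mean count above 50, 24 with no filter beyond 1 count and 26 with the replicate block. Over all genes, 41 rose and 14 fell in the fit of the report, 233 and 64 with DESeq2, 123 and 50 with a mean count above 50, 324 and 113 with no filter, 485 and 167 with the block, 93 and 30 with halved counts and 87 and 24 with the legacy method off. The cause of these differences was not tested. The replicate numbers of the labels were not taken as pairs: deviations of the same-numbered libraries from their group means had a correlation of -0.000896.

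Leaving out each library in turn gave 8 to 45 genes that rose and 21 to 50 past an unadjusted p under 0.05, while 77 to 923 genes of the whole table rose and 26 to 272 fell. The median log2 fold change ranged from 0.107 to 0.379 over all members, from 0.107 to 0.37 in complex I, from 0.0705 to 0.179 in complex II, from 0.17 to 0.523 in complex IV and from 0.17 to 0.382 in complex V. In each case the lowest value came without siLOC730101 replicate 2 and the highest without siLOC730101 replicate 1. A lone library is assumed there to vary like the other group. Genes above 0 numbered 68 of 73 in the report, 67 with library sizes alone and 60 of 74 without siLOC730101 replicate 2.

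Of the 8 genes that rose, 7 passed in all 15 of them, and COX7B in 14. COX7A2 did not pass in the report and passed under 11 of the 15. Among the 32 members tested that share no exon base with another gene, a choice added after the data had been seen, 4 rose, 17 passed an unadjusted p under 0.05 and the median was 0.251. The highest and lowest levels per kb of exon fell on the same genes with library sizes alone and with copies added, and at 1 end of the order on another gene in complexes I, IV and V with the length of the canonical mRNA.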

Other observations

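The 77 genes lay on 22 chromosomes, with 10 on chromosome 19 and 7 on chromosome 11. The name pattern took in 150 pseudogene and read-through rows named after them, of which 107 had 0 counts in all libraries. Among the rest, COX7A2P1 had 64 and 88 counts in siControl and 65 and 38 in siLOC730101, and COX6A1P2 had 28 and 24 in siControl and 12 and 22 in siLOC730101. NDUFV2P1, and SDHAP1, SDHAP3 and SDHAP4, which the pattern does not take in, had more counts than these and are described above.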
